A study of Mus musculus with 11 samples.

Results

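The 10 genes described here encode the enzymes and partner proteins that place and remove N6-methyladenosine (m6A), the most common internal mark of messenger RNA. They were taken by symbol from a deposited table of 54532 genes, with 8 writer genes (Mettl3, Mettl14, Wtap, Rbm15, Rbm15b, Zc3h13, Cbll1 and Mettl16) and 2 eraser genes (Fto and Alkbh5). All 10 were found once and all 10 passed the filter on low counts, as did 14862 genes in all. RNA of whole hearts of C57BL/6 mice, with a labelled time of 26 weeks, was sequenced in 11 libraries of 3 groups. The chow group held 3 libraries. The HFD+STZ group held 4, letters that usually stand for a high-fat diet with streptozotocin, which damages the pancreatic beta cells and serves as a model of diabetes. The third group, called METTL3 here, held 4 libraries labelled HFD+STZ together with AAV METTL3, so it shares the diabetic treatment and adds a virus carrying METTL3. The labels name neither the promoter of the virus nor the species of its METTL3, and no label says if a control virus was given to the other groups. Nothing in the labels says that replicates of a group were separate animals, so p-values measure only the spread between these libraries.

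In the writer complex, METTL3 is the catalytic subunit and METTL14 its structural partner, which together bind RNA. WTAP holds this pair in nuclear speckles, and RBM15 or its paralog RBM15B, ZC3H13, VIRMA and the ubiquitin ligase CBLL1 (also called HAKAI) form the rest of the complex. METTL16 is a separate enzyme that methylates U6 small nuclear RNA and hairpins of the Mat2a messenger RNA. FTO and ALKBH5 are iron-dependent dioxygenases that remove the mark, and in the heart both the writers and FTO have been studied in growth and failure of cardiomyocytes.

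Coordinates are those deposited, in mm10. Mettl3 (ENSMUSG00000022160) spans 52294841 to 52305128 of chromosome 14, which also carries Zc3h13 (75284373 to 75344426). Mettl14 (123368297 to 123386108) and Rbm15 (107325421 to 107333673) lie on chromosome 3, Wtap on chromosome 17 (12966796 to 12994169) and Rbm15b on chromosome 9 (106880918 to 106887428). Cbll1 lies on chromosome 12 (31484829 to 31499616), Mettl16 (74770830 to 74828525) and Alkbh5 (60536381 to 60558512) on chromosome 11, and Fto on chromosome 8 (91313525 to 91668439). The 3′ end of Mettl3 overlaps exons of Tox4 on the opposite strand over 933 bases, 18.4% of the exon bases of Mettl3. Whether strand was used in counting is not stated in the labels, so reads in that stretch cannot be assigned to Mettl3 or Tox4 with certainty. Tox4 averaged 32.3 CPM (a library-size-scaled count, with TMM correction for composition), and its log2 fold change from HFD+STZ to METTL3 libraries was 0.081 (SE 0.14). The antisense gene Gm29542, which overlaps 17.6% of the exon bases of Cbll1, had 0 counts in all libraries. Smaller exon overlaps were found for Rbm15b, with Dcaf1 over 75 bases and Manf over 14, and for Fto, with 4831440D22Rik over 144 bases and Gm45427 over 304. The remaining genes lying within Fto (Gm3235, Gm45293, Gm45290, Gm45289, Gm45294 and Gm45292) share no exon base with it, and each has a mean of at most 0.902 CPM.

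A feature that the choice of genes did not use is the base composition of their promoters. RefSeq windows of GRCm38.p6, from 250 bases before to 50 after a start site, were matched for 9 of the 10 genes, in 12 windows. Each of these held 17 to 48 CpG dinucleotides, where the median over all 32851 windows was 7, and had a GC content of 52.0% to 80.3% against a median of 52.7%. The letters CCGGAAG, the core bound by ETS factors, were searched on both strands and found for 3 of the 9 genes, against 8.86% of all windows. A gene counts here with a match in any of its windows, while the background counts single windows, so the shares are not of like units. GGGCGG was found for 6 of the 9 genes, against 35.7% of windows, CCAAT for 4, against 37.4%, and CACGTG for 1, against 7.15%. The consensus of the factor NRF1, with any base allowed at a middle position, was found for Cbll1 alone, against 4.60% of all windows. The match in Cbll1 is not a palindrome. TATAAA was found for none of the 9, against 13.6%. The windows of the 3 genes with CCGGAAG are shown 5′ to 3′ on the strand of the gene, since Mettl3 is the gene that the virus is labelled to deliver and the others share this sequence with it, and capitals mark CCGGAAG and, in Cbll1, also the NRF1 letters. They are chr14:52305075-52305374 on the minus strand for Mettl3, chr14:75284116-75284415 on the plus strand for Zc3h13 and chr12:31499567-31499866 on the minus strand for Cbll1.
Mettl3: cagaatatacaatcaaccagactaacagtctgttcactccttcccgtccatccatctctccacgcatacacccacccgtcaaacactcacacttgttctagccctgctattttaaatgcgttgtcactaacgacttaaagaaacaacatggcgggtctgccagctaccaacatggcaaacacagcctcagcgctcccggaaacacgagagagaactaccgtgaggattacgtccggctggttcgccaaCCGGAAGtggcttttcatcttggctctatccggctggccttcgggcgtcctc
Zc3h13: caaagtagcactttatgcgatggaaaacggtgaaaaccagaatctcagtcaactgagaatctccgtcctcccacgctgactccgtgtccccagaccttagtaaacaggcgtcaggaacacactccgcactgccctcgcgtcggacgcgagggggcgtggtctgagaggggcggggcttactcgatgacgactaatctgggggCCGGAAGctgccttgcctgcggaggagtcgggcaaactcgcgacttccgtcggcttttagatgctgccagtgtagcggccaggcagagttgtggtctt
Cbll1: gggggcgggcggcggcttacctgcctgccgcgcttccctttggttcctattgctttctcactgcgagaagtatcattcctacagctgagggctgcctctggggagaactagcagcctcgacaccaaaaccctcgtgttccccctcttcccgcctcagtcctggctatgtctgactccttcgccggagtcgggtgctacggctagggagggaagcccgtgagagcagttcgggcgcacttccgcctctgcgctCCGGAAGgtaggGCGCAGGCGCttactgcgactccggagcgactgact
With the start site at 0, the motif began at -2 in Mettl3, at -48 in Zc3h13 and at 2 in Cbll1. A match is a description of the letters and not evidence of binding.

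The libraries held 13900531 to 16952639 counts each, and of these 7651470 to 12994921 came from the nuclear genome. The share of mitochondrial counts was 9.28% in chow replicate 3 and 25.3% and 27.4% in the other chow libraries, 28.6% to 32.5% in HFD+STZ and 37.7% to 45.5% in METTL3 libraries. The summed level of 6 cardiomyocyte markers was 27966 to 40490 CPM over all libraries, with none of them at 0. The 6 macrophage markers summed to 184 to 343 CPM on chow, 125 to 245 in HFD+STZ and 72.6 to 126 in METTL3 libraries. Of the 6, edgeR called 2 lower in METTL3 than in chow libraries, as it did 1 of the 2 lymphocyte markers tested. In that comparison 3.2% of all genes tested were called, higher or lower. Adipocyte markers summed to 3.6 to 8.96 CPM on chow, 0.0609 to 4.02 in HFD+STZ and 0.0783 to 0.896 in METTL3 libraries, with 0 of 2 tested called. The 5 smooth muscle and pericyte markers summed to 1049 to 1160, 830 to 1351 and 1307 to 1748 CPM in the same order. For the 3 Schwann cell markers the sums were 5.75 to 12.2, 4.60 to 10.1 and 10.3 to 19.3 CPM, with 0 of 2 tested called. In whole tissue, fewer cells of a type and less RNA per cell cannot be told apart, and the part of these shifts in the values below was not tested.

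Levels of the 10 transcripts were compared per kilobase of the deposited gene length, which equals the length of all annotated exons together for each of the 10 genes. Over the 11 libraries Alkbh5 was the most abundant, at 15.3 ± 3.02 CPM per kilobase (SD), above Wtap in 11 of 11 libraries. Wtap followed at 5.34 ± 0.616 and Fto at 4.52 ± 0.780, with Wtap above Fto in 9 of 11 libraries. Zc3h13 (3.47 ± 0.738), Rbm15b (3.0 ± 0.617) and Rbm15 (2.42 ± 0.393) formed the middle of the order. Zc3h13 exceeded Rbm15b in 9 of 11 libraries, Rbm15b exceeded Rbm15 in 9 and Rbm15 exceeded Cbll1 in 10. The last 4 were close together. Cbll1 lay at 1.64 ± 0.483, Mettl14 at 1.56 ± 0.245, Mettl3 at 1.38 ± 0.431 and Mettl16 at 1.14 ± 0.156 CPM per kilobase. Cbll1 exceeded Mettl14 in 6 of 11 libraries, Mettl14 exceeded Mettl3 in 7 and Mettl3 exceeded Mettl16 in 8, so these neighbours were not separated beyond their spread.

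This order depends on the length chosen, and ranks 2 to 9 changed with it. Mettl3 has 15 annotated transcripts in GENCODE M21, of which 4 are coding, and its exons together measure 5076 bases where the longest coding transcript measures 2025. Divided by the longest coding transcript, Mettl3 moved from rank 9 to rank 6, at 3.47 ± 1.08 CPM per kilobase, and Fto rose to rank 2, at 12.5 ± 2.16, above Wtap at 10.5 ± 1.21. Rbm15, whose length falls from 7423 to 4343 bases, moved from rank 6 to rank 4, at 4.14 ± 0.671, above Zc3h13 (3.54 ± 0.754) in 6 of 11 libraries, and Rbm15b came to rank 7. Alkbh5 kept rank 1 at 16 ± 3.16 and Mettl16 rank 10 at 1.25 ± 0.171.

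**Figure D1:**
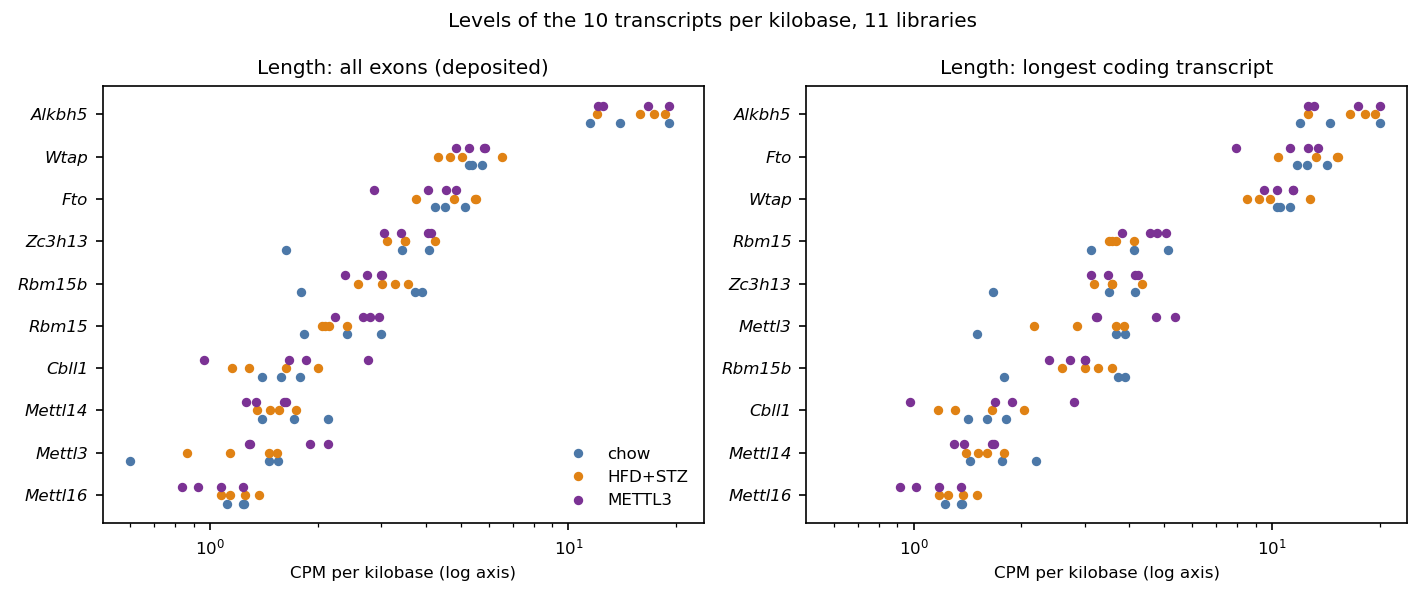
Level of each of the 10 transcripts in CPM per kilobase on a log axis, with 1 point per library coloured by group, for the deposited length (left) and the longest coding transcript (right). Alkbh5 has the highest mean in both panels. Its points lie above all others on the left and overlap those of Fto and Wtap on the right. Mettl3 stands at rank 9 on the left and rank 6 on the right.

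Mettl3 was read first, as a check of the labels. On chow its level was 7.88, 7.42 and 3.04 CPM in replicates 1 to 3. In HFD+STZ libraries it was 7.82, 7.42, 4.39 and 5.78 CPM, and in METTL3 libraries 9.64, 6.52, 6.57 and 10.8 CPM, in each case for replicates 1 to 4. METTL3 replicates 1 and 4 lay above every other library, while replicates 2 and 3 lay within the range of the HFD+STZ group. The means were 6.11 ± 2.67 (SD, n = 3), 6.35 ± 1.58 (SD, n = 4) and 8.39 ± 2.19 CPM (SD, n = 4). Between METTL3 and HFD+STZ the fold was 1.32, with a 95% interval of 0.815 to 2.13 (adjusted p = 0.759 by edgeR with Benjamini-Hochberg correction). A two-sided exact permutation test of the difference of 2.04 CPM gave p = 0.229, where 4 against 4 libraries cannot go below 0.0286. Mettl3 rested on 54 to 152 counts per library. The difference was thus not larger than the spread between replicates, and rises of these counts beyond 2.13-fold lie outside the interval. The counts are those assigned to the annotated mouse gene. The labels do not name the species of the viral METTL3, so how much of its transcript was counted here is not known. What is given below for the METTL3 group rests on its label.

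The genes whose log2 CPM ran closest to that of Mettl3 over the 11 libraries, among 10095 with a mean of at least 5 CPM, were Zfp346 (Pearson r 0.92, Spearman rho 0.88), Tgs1 (0.92, 0.95) and Arf3 (0.92, 0.85). This is a description of libraries that differ in group and depth, and the 3 genes were picked for their r. Without chow replicate 3 the r was 0.84, 0.83 and 0.83.

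**Figure D2:**
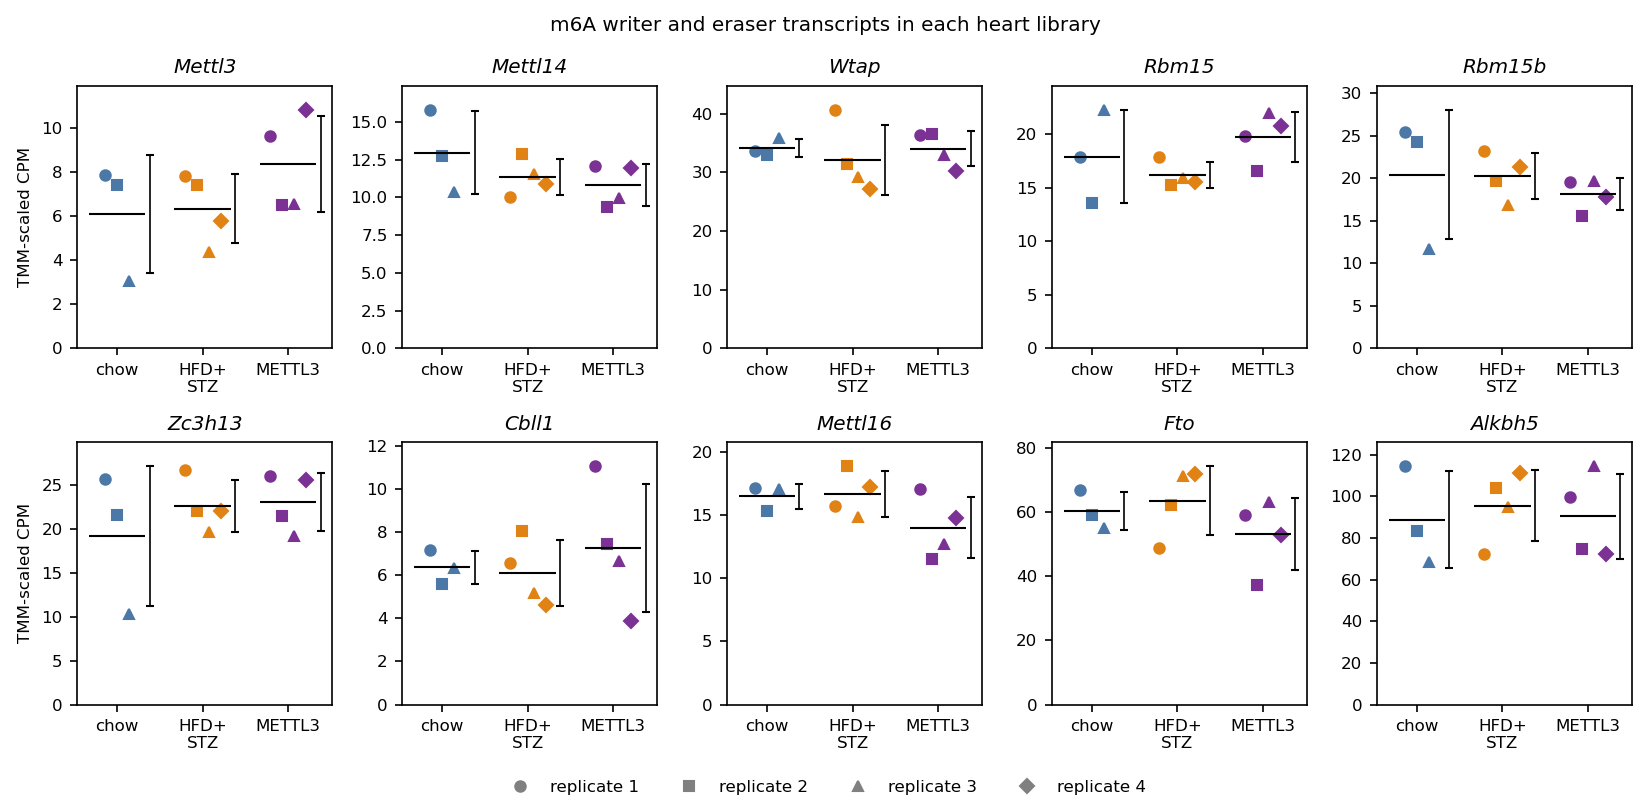
TMM-scaled CPM of each of the 10 genes in the 3 chow, 4 HFD+STZ and 4 METTL3 libraries, with a line at the group mean, a bar of 1 SD on either side and symbols for the replicate number. The groups overlap in every panel, and chow replicate 3 is the lowest library for Mettl3, Rbm15b, Zc3h13 and Alkbh5.

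The first comparison asked whether the diabetic treatment was accompanied by a change of the m6A machinery. None of the 10 genes was called between HFD+STZ and chow hearts, where 0.168% of all genes tested passed an edgeR Benjamini-Hochberg adjusted p of 0.05. A gene that does not pass may still have changed, as the intervals below show. In none did the groups separate, against 10.4% of all genes, and none had an unadjusted p under 0.05, against 12.1%. The log2 fold changes ran from -0.19 for Mettl14 to 0.24 for Zc3h13, with 5 above and 5 below 0. Their median was 0.0015, and that of all genes -0.018. The median size without sign was 0.081 for the 10 genes and 0.31 for all genes. The 95% interval stayed within a 2-fold change in either direction for 10 of 10 genes, against 49.2% of all genes, and within 1.5-fold for 5 of 10, against 16.6%. The median SE was 0.22 for the 10 genes and 0.30 for all genes. All genes thus include less precisely measured ones, and the part of precision in these contrasts was not tested. DESeq2 also called 0 of the 10, where it called 284 of the 27239 genes it was given. Limma voom called 0 of the 10 as well, where it called 13.1% of all genes. With voom 1 of the 10 had an unadjusted p under 0.05, against 28.9% of all genes.

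The writer core gave the following values. Mettl14 stood at 15.8, 12.7 and 10.4 CPM on chow and at 10.1, 12.9, 11.6 and 10.9 CPM in HFD+STZ libraries. Only chow replicate 1 lay outside the HFD+STZ range, with a log2 fold change of -0.19 (SE 0.20). Wtap stood at 33.6, 33 and 35.9 CPM on chow and at 40.7, 31.5, 29.3 and 27.1 CPM in HFD+STZ libraries. HFD+STZ replicate 1 was the highest of all libraries for Wtap and replicate 4 the lowest, and the log2 fold change was -0.088 (SE 0.17). The 95% interval of Wtap, -0.45 to 0.27, was the narrowest of the 10 in this comparison.

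Among the accessory subunits, chow replicate 3 stood apart. Zc3h13, a zinc finger scaffold of the complex, stood at 25.6, 21.6 and 10.2 CPM on chow and at 26.7, 22.0, 19.6 and 22.0 CPM in HFD+STZ libraries. Rbm15b, an RNA-binding subunit that helps choose sites, stood at 25.4, 24.2 and 11.7 CPM on chow against 23.2, 19.6, 16.9 and 21.3 CPM. Its paralog Rbm15 went the other way in that library, with 17.9, 13.5 and 22.3 CPM on chow and 17.9, 15.3, 16 and 15.5 CPM in HFD+STZ. For Zc3h13 and Rbm15b the third chow library was the lowest of all 11, and for Rbm15 it was the highest. It is also the library with 9.28% mitochondrial counts, and the part of that in these levels was not tested. The log2 fold changes were 0.24 (SE 0.26) for Zc3h13, -0.012 (SE 0.24) for Rbm15b and -0.15 (SE 0.19) for Rbm15. Without chow replicate 3 they became -0.054, -0.28 and 0.047, and that of Mettl3 moved from 0.056 (SE 0.35) to -0.26, and none passed. Cbll1 stood at 7.15, 5.59 and 6.30 CPM on chow and at 6.53, 8.03, 5.16 and 4.63 CPM in HFD+STZ libraries, a log2 fold change of -0.060 (SE 0.33). The independent methyltransferase gene Mettl16 stood at 17.2, 15.4 and 17.1 CPM against 15.7, 18.9, 14.8 and 17.3 CPM, a log2 fold change of 0.015 (SE 0.18). For both genes the HFD+STZ range enclosed all chow libraries.

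The erasers overlapped between the groups as well. Fto stood at 66.9, 59.1 and 55.2 CPM on chow and at 48.8, 62.4, 71.4 and 71.9 CPM in HFD+STZ libraries, a log2 fold change of 0.075 (SE 0.20). Alkbh5 stood at 114, 83.4 and 68.6 CPM against 72.0, 104, 94.9 and 111 CPM, a log2 fold change of 0.10 (SE 0.23). HFD+STZ replicate 1 was the lowest of its group for both erasers. Descriptions in the labels number the samples 25 to 33 or 78 to 98, and every chow library has a number in the higher range, as has HFD+STZ replicate 1. What these numbers stand for is not stated, so they are not called a batch here. With the range of these codes as a covariate Alkbh5 had a log2 fold change of -0.26 and Fto of -0.12, and neither passed. Outside chow only HFD+STZ replicate 1 and METTL3 replicate 4 have a number in the higher range. The covariate thus rests on these libraries, and its values cannot separate the codes from single libraries.

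The comparison that the series names, METTL3 against HFD+STZ, likewise called none of the 10 genes with edgeR, where 0% of all genes tested passed the adjusted threshold. In none did the groups separate, against 9.57% of all genes, and none had an unadjusted p under 0.05, against 9.06%. DESeq2 called 0 of the 8 genes that received an adjusted p, where it called 70 of the 27239 genes it was given. Mettl3 and Cbll1 received no adjusted p, so DESeq2 could not call them here. At an unadjusted p under 0.05 with DESeq2 stood 0 of the 10, where 1536 of the 27239 genes did. Limma voom called 0 of 10, with 1 at an unadjusted p under 0.05. With voom 2.66% of all genes were called and 21.5% had an unadjusted p under 0.05. The log2 fold changes ran from -0.26 for Fto to 0.40 for Mettl3, again with 5 on either side of 0. The median was -0.020 against -0.0036 over all genes, and the median size without sign 0.20 against 0.25. The median SE was 0.20 for the 10 genes and 0.28 for all genes. The 95% interval stayed within 2-fold for 9 of 10 genes, against 58.4% of all genes. Mettl3 was the exception, with a 95% interval of -0.30 to 1.09 on the log2 scale.

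**Figure D3:**
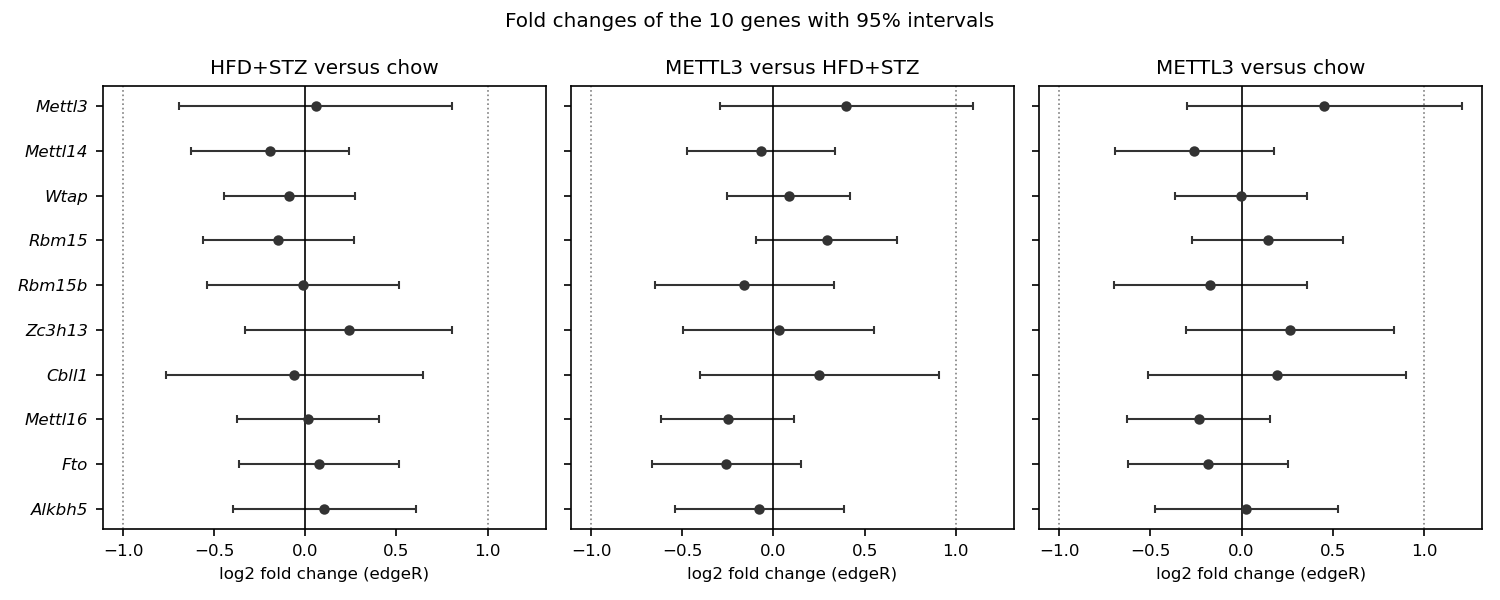
Log2 fold change of each of the 10 genes in the 3 comparisons, with points for the edgeR estimate, bars for the 95% interval and dotted lines at a 2-fold change. Every interval crosses 0, and only those of Mettl3 in the comparisons of the METTL3 group cross a dotted line.

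In METTL3 libraries Mettl14 stood at 12.1, 9.36, 9.97 and 11.9 CPM, a log2 fold change of -0.068 (SE 0.19) against HFD+STZ. Wtap stood at 36.4, 36.5, 32.9 and 30.3 CPM, a log2 fold change of 0.083 (SE 0.16). For both genes every METTL3 library but Mettl14 in replicates 2 and 3 lay within the HFD+STZ range. Zc3h13 stood at 25.9, 21.5, 19.2 and 25.5 CPM (log2 fold change 0.028, SE 0.24). Cbll1, the ubiquitin ligase subunit, was the most variable, at 11, 7.44, 6.64 and 3.85 CPM, so that METTL3 libraries held both its highest and its lowest value of all 11. Its log2 fold change was 0.25 (SE 0.30), on 43 to 141 counts per library.

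Rbm15 stood at 19.8, 16.5, 22.0 and 20.8 CPM in METTL3 libraries. Of these, 3 lay above all HFD+STZ libraries, whose highest was 17.9 CPM, and the log2 fold change was 0.29 (SE 0.18). Its adjusted p of 0.658 (edgeR, Benjamini-Hochberg) was the smallest of the 10 genes. Rbm15b stood at 19.6, 15.5, 19.6 and 17.8 CPM, a log2 fold change of -0.16 (SE 0.23). Mettl16 stood at 17.1, 11.5, 12.8 and 14.8 CPM, with replicates 2, 3 and 4 below all HFD+STZ libraries. Replicate 4 lay only just below, at 14.78 CPM against 14.84 CPM in HFD+STZ replicate 3. The log2 fold change was -0.25 (SE 0.17, adjusted p = 0.691 by edgeR with Benjamini-Hochberg correction). Mat2a, the methionine adenosyltransferase gene whose messenger RNA METTL16 methylates, had means of 139 CPM in HFD+STZ and 161 CPM in METTL3 libraries (log2 fold change 0.21, SE 0.17).

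Fto stood at 59.1, 37.4, 63.2 and 52.9 CPM in METTL3 libraries against 48.8 to 71.9 CPM in HFD+STZ, which gave a log2 fold change of -0.26 (SE 0.19, adjusted p = 0.723 by edgeR with Benjamini-Hochberg correction). METTL3 replicate 2 was the lowest library of all for Fto, Mettl14 and Mettl16. Alkbh5 stood at 99.8, 74.9, 114 and 72.3 CPM, with all METTL3 libraries but replicate 3 inside the HFD+STZ range, and a log2 fold change of -0.078 (SE 0.21). For Fto a fall beyond 0.630-fold and a rise beyond 1.11-fold lay outside the 95% interval, and for Alkbh5 the interval was 0.686 to 1.31-fold.

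Within the sample codes 25 to 33, which hold 3 libraries of each of these groups, no member passed, and the log2 fold changes were 0.36 (SE 0.27) for Mettl3, -0.37 (SE 0.19) for Fto, 0.31 (SE 0.17) for Rbm15 and -0.31 (SE 0.20) for Mettl16. Across 14851 genes, which are not independent, the fold changes of this comparison ran with transcript GC content (Spearman rho -0.50). The GC content of the longest transcript of each of the 10 genes was 39.6% for Wtap to 56.4% for Rbm15b. With offsets for GC content and length the log2 fold changes of Wtap (-0.23), Rbm15b (0.076) and Cbll1 (-0.040) turned to the other side of 0. Those of Mettl3 (0.46), Mettl14 (-0.32), Rbm15 (0.16), Zc3h13 (0.11), Mettl16 (-0.39), Fto (-0.26) and Alkbh5 (-0.0089) kept their side.

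Ratios of 2 transcripts within a library do not depend on library size, and 4 pairs of members were read this way, as a description with no test. The Mettl3 to Mettl14 ratio of counts was 0.498, 0.582 and 0.293 on chow and 0.778, 0.575, 0.380 and 0.531 in HFD+STZ libraries. In METTL3 libraries it was 0.799, 0.696, 0.659 and 0.910. The METTL3 group had the higher mean, 0.766 ± 0.113 (SD, n = 4) against 0.566 ± 0.164 (SD, n = 4), but HFD+STZ replicate 1 lay among its libraries. The Rbm15 to Rbm15b ratio was 0.772, 0.777, 0.946 and 0.729 in HFD+STZ and 1.01, 1.06, 1.12 and 1.17 in METTL3 libraries, and these groups did not overlap. Chow libraries spanned both, at 0.706, 0.559 and 1.91. How many of all gene pairs separate HFD+STZ and METTL3 libraries in this way was not counted. Of single genes, 9.57% separated them. The GC content of the longest transcript was 56.4% for Rbm15b and 44.2% for Rbm15, and that of the coding transcript of Rbm15 was 53.0%. With offsets for GC content and length the log2 fold changes between METTL3 and HFD+STZ were 0.16 for Rbm15 and 0.076 for Rbm15b. Without offsets they were 0.29 and -0.16. The part of GC content in this ratio was not tested. Fto to Alkbh5, per kilobase, was 0.276 to 0.346 in HFD+STZ and 0.230 to 0.336 in METTL3 libraries, and Mettl3 to Fto in counts 0.0615 to 0.160 and 0.104 to 0.205, both with overlap.

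**Figure D4:**
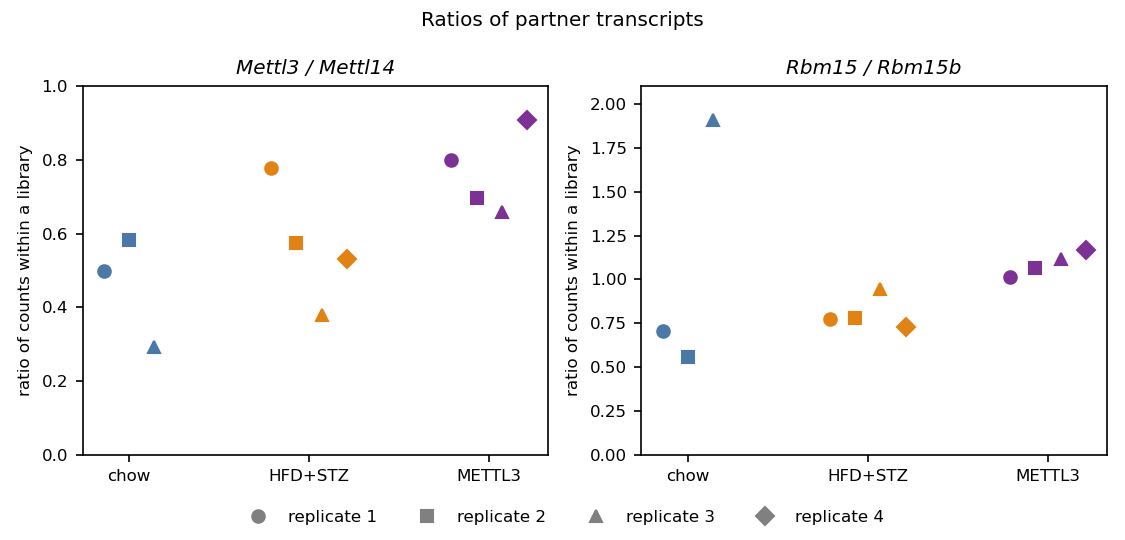
Ratio of counts of Mettl3 to Mettl14 (left) and of Rbm15 to Rbm15b (right) within each library, by group, with symbols for the replicate number. On the right the METTL3 libraries lie at 1.01 to 1.17 and the HFD+STZ libraries at 0.729 to 0.946, while chow replicate 3 lies at 1.91.

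Between METTL3 and chow hearts, which differ in both the diabetic treatment and the virus, edgeR again called 0 of the 10 genes, where 3.2% of all genes tested passed a Benjamini-Hochberg adjusted p of 0.05. None separated the groups, against 18.7% of all genes, and none had an unadjusted p under 0.05, against 21.7%. This comparison shares its METTL3 libraries with the one before and its chow libraries with the first. The log2 fold changes ran from -0.26 for Mettl14 (SE 0.20) to 0.45 for Mettl3 (SE 0.35). For the erasers they were -0.18 (SE 0.20) for Fto and 0.026 (SE 0.23) for Alkbh5. The median of the 10 genes was 0.011 and that of all genes -0.011, and the median size without sign 0.19 against 0.37. The interval stayed within 2-fold for 9 of 10 genes, against 44.6% of all genes, and Mettl3 was the exception (-0.30 to 1.21). The median SE was 0.22 for the 10 genes and 0.30 for all genes. DESeq2 called 0 of the 10, where it called 1333 of the 27239 genes it was given. Limma voom with quality weights called Rbm15 (log2 fold change 0.48, adjusted p of 0.0254), which had 0.14 (SE 0.19) with edgeR. Voom called 20.7% of all genes in this comparison, so 1 of 10 lies below its background, and 2 of the 10 had an unadjusted p under 0.05 with voom, against 35.2% of all genes. Without chow replicate 3, the highest library for Rbm15, the edgeR log2 fold change was 0.32 and did not pass.

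Of 6 lists of genes around the m6A pathway, with 55 genes of which 52 were tested, edgeR called 0 in each comparison. At an unadjusted p under 0.05 stood 6 genes for HFD+STZ versus chow, 7 for METTL3 versus HFD+STZ and 11 for METTL3 versus chow, of 52 each, against 12.1%, 9.06% and 21.7% of all genes. Virma, the writer scaffold that the 10 genes leave out, had means of 24.1 ± 2.79 CPM (SD, n = 3) on chow, 24.1 ± 2.68 (SD, n = 4) in HFD+STZ and 27.1 ± 4.83 (SD, n = 4) in METTL3 libraries, with log2 fold changes of 0.0023 (SE 0.18) and 0.17 (SE 0.17) for HFD+STZ versus chow and METTL3 versus HFD+STZ. In the list of other methyltransferases, 6 genes with a median of 0.16 between METTL3 and HFD+STZ, the most abundant per kilobase were Trmt112, an activator of several methyltransferases (0.14, SE 0.31), and Pcif1, the cap-adjacent adenosine methyltransferase (0.040, SE 0.14). For the methyl donor genes the median was -0.046 over 7 genes tested, with Mat2a given above and its regulatory partner Mat2b at 0.31 (SE 0.16).

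The m6A reader list had the highest median of the lists in this comparison, 0.36 over 13 genes tested, where all genes had -0.0036, and 5 of its genes had an unadjusted p under 0.05, against 9.06% of all genes, and 0 passed. Its most abundant genes per kilobase, the RNA-binding protein genes Hnrnpa2b1 and Hnrnpc, had log2 fold changes of 0.26 (SE 0.19) and 0.12 (SE 0.17). The other AlkB-family genes, relatives of the erasers, had a median of 0.065 over 7 genes, with Alkbh7 at 0.17 (SE 0.36) and Alkbh3 at -0.26 (SE 0.16). Other METTL-family genes had a median of 0.17 over 13 genes tested, with Mettl9 at 0.25 (SE 0.16) and Mettl23 at 0.50 (SE 0.29). Splicing, export and polyadenylation partners had a median of 0.28 over 6 genes, with Nxf1 at 0.29 (SE 0.25) and Srsf3 at 0.52 (SE 0.33). Between HFD+STZ and chow the medians of the lists, in the same order from methyltransferases to splicing partners, were -0.097, 0.45, -0.10, -0.12, -0.27 and -0.13, and between METTL3 and chow 0.075, 0.31, 0.23, -0.11, -0.061 and 0.15.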

How the data were processed

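Whole-heart RNA was sequenced in 11 libraries after ribosomal RNA depletion with a RiboZero kit and preparation with a NEB kit, per the labels' protocols. The authors deposited whole-number counts per gene and library, with a gene length in bases. FastQC, Salmon and mm10 are named in the submitters' processing notes; their versions, the annotation, strand use and treatment of multi-mapping reads are not given in these sources. Of 54532 identifiers, 54409 are in GENCODE M21, and 53499 agree in position.

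Groups and replicate numbers were taken from the sample titles. The count test was the quasi-likelihood F test of edgeR 4.0.16 (R 4.3.3) after TMM scaling. Low genes were removed by filterByExpr (minimum count 10, minimum total 15), 1 model held the means of the 3 groups, and p-values were adjusted by Benjamini-Hochberg across the 14862 genes kept. SEs came from the coefficient and its F statistic, and 95% intervals from these and the moderated degrees of freedom; they cover counting error and the modelled spread only. CPM were scaled by TMM, with a prior count of 2 before logs. No pair of libraries of the same group agreed within sampling noise.

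The 10 genes, the lists and the alternatives were chosen with earlier results of these data known. The rule for naming takes all 10 genes, Virma, genes overlapping a member, the 3 genes closest to Mettl3, and from each list genes past the threshold or, with none, the 2 most abundant per kilobase. Alternatives were DESeq2 1.42.0, limma 3.58.1 (voom with quality weights), RLE or upper-quartile scaling, leaving out mitochondrial genes, 2 other filters, robust moderation, only the groups compared, a replicate block, the sample code range, leaving out libraries, and loess offsets (span 0.5) on GC content and length. The fit on codes 25 to 33 alone was chosen after seeing the data. The procedure was tested on counts simulated for all genes tested. Of simulated log2 fold changes of 1 in size, it called 11.2% for HFD+STZ versus chow, 30% for METTL3 versus HFD+STZ and 13.3% for METTL3 versus chow. Of those of 2 in size it called 67.0%, 81.4% and 68.4%.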

Additional observations from a re-analysis of the deposited data

How the results depend on the processing

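The count of the 10 genes called stayed at 0 in all 3 comparisons and all settings, except that limma voom called 1 in METTL3 versus chow, Rbm15. The 0 of DESeq2 in METTL3 versus HFD+STZ covers only 8 genes, as Mettl3 and Cbll1 received no adjusted p. Over all genes, the counts called for HFD+STZ versus chow, METTL3 versus HFD+STZ and METTL3 versus chow were 25, 0 and 475 with edgeR, 284, 70 and 1333 with DESeq2, and 1954, 395 and 3078 with voom. These counts are of 14862 genes with edgeR and voom and of 27239 with DESeq2. Of 730 log2 fold changes of single genes under the alternatives, 661 kept their direction and their side of the threshold, 1 newly passed and 68 changed sign without passing; the cause was not tested. Between METTL3 and HFD+STZ, 5 genes kept their sign in all 25 settings: Mettl3 (0.25 to 0.51), Mettl14, Rbm15, Mettl16 and Fto. The Mettl3 difference of 2.04 CPM was 1.83 to 2.98 under other scalings or with mitochondrial genes left out. Without single libraries it was 1.25 to 2.70, and the exact permutation p in all these settings was 0.143 to 0.429. Leaving out mitochondrial genes lowers the total by which counts are scaled, which raises CPM. In that setting the log2 fold change of Mettl3 was 0.39, against 0.40 in the main fit.

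For HFD+STZ versus chow the sign changed with voom for Mettl3 (-0.28), Rbm15 (0.12), Zc3h13 (-0.021) and Cbll1 (0.027); with the code range for Wtap (0.016), Rbm15b (0.077), Fto (-0.12) and Alkbh5 (-0.26); with GC and length offsets for Mettl16 (-0.17) and Fto (-0.10); and without chow replicate 3 and HFD+STZ replicate 1 together for Mettl3 (-0.38) and Zc3h13 (-0.15). Mettl16 also changed with upper-quartile scaling (-0.031), the stricter filter (-0.00058) and only the groups compared (-0.0021). Leaving out single libraries gave -0.26 to 0.29 for Mettl3, -0.29 to 0.047 for Rbm15, -0.28 to 0.18 for Rbm15b, -0.054 to 0.51 for Zc3h13, -0.22 to 0.060 for Cbll1, -0.051 to 0.066 for Mettl16 and -0.044 to 0.34 for Alkbh5.

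For METTL3 versus HFD+STZ it changed with offsets for Wtap (-0.23), Rbm15b (0.076) and Cbll1 (-0.040), and for Zc3h13 with upper-quartile scaling (-0.0077) and no filter (-0.0056). Leaving out single libraries gave -0.0050 to 0.21 for Wtap, -0.034 to 0.11 for Zc3h13, -0.025 to 0.46 for Cbll1 and -0.21 to 0.015 for Alkbh5. For METTL3 versus chow it changed with voom for Wtap (0.030); with upper-quartile scaling for Alkbh5 (-0.049); with the code range for Wtap (0.11), Cbll1 (-0.16) and Alkbh5 (-0.34); without chow replicate 3 and HFD+STZ replicate 1 for Wtap (0.024), Zc3h13 (-0.042) and Alkbh5 (-0.14); and with offsets for Rbm15 (-0.13), Rbm15b (0.045) and Cbll1 (-0.17). Leaving out single libraries gave -0.040 to 0.047 for Wtap, -0.016 to 0.32 for Rbm15, -0.46 to 0.0062 for Rbm15b, -0.043 to 0.52 for Zc3h13, -0.085 to 0.40 for Cbll1 and -0.14 to 0.24 for Alkbh5.

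The groups share replicate numbers, but the numbers did not pair the libraries: deviations from group means of same-numbered libraries correlated at -0.16 to 0.13 between HFD+STZ and METTL3, and those of other pairs at -0.14 to 0.12. With the replicate block edgeR called 0 of the 10 genes in each comparison, and Mettl3 had a log2 fold change of 0.42 between METTL3 and HFD+STZ; the sign changed for Rbm15b (0.016), Cbll1 (0.12) and Mettl16 (-0.0054) in HFD+STZ versus chow and for Wtap (0.055) in METTL3 versus chow. Within pairs of the same number the Mettl3 difference of 2.04 CPM had an exact permutation p of 0.25, where 0.125 is the smallest possible.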

Other observations

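Of the pathway genes outside the 10, those with the smallest adjusted p were all found between METTL3 and chow, and they are named here after their values were seen. The reader gene Ythdf3 had a mean of 110 CPM in METTL3 and 70.1 CPM in chow libraries (log2 fold change 0.65, SE 0.17, edgeR Benjamini-Hochberg adjusted p of 0.0544). Alkbh6, of the family of the erasers, had 9.42 and 18.3 CPM (log2 fold change -0.95, SE 0.27, edgeR Benjamini-Hochberg adjusted p of 0.0683), and Mettl9 had 98 and 65.5 CPM (log2 fold change 0.58, SE 0.18, edgeR Benjamini-Hochberg adjusted p of 0.0891). None of these passed the threshold.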
